A study of Mus musculus with 19 samples.

Results

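Mucosal surfaces defend themselves with a small set of genes that the gut epithelium switches on when it meets bacteria. The 10 genes described here were chosen by name as such genes: the secreted lectins Reg1, Reg3a, Reg3b and Reg3g, the serum amyloids Saa1 and Saa2, the hydrogen peroxide-producing oxidase Duox2 with its maturation factor Duoxa2, the inducible nitric oxide synthase Nos2, and Lcn2, which withholds iron from bacteria by binding siderophores. All 10 were found by symbol among the 55487 genes listed in the count tables, and 8 of them were abundant enough to be among the 17875 genes tested. Saa1 and Saa2 were not. The genes and the lists used below were chosen with earlier results of these data known. Their counts beside the shares of all genes are therefore a description and no test. No microbial measurement was analysed here, so the name microbiota-responsive describes what is known of these genes elsewhere and was not checked.

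RNA was sequenced from small intestinal crypts, the epithelial pits that hold stem, Paneth and progenitor cells, of 19 C57BL/6 mice, with 1 library per mouse. The mice were wild type (NT+/+) or lacked the gut peptide neurotensin (NT-/-), and were either fed standard chow ad libitum (AL) or given only water for 48 hours (Fast). There were 5 NT+/+ AL, 4 NT-/- AL, 5 NT+/+ Fast and 5 NT-/- Fast mice, of both sexes and, by the study's methods, 10 to 16 weeks old. The methods also describe an Lgr5 reporter allele, and the labels do not say whether the sequenced mice carried it. Crypts were freed with EDTA from the proximal part of the small intestine, whereas neurotensin is made mainly further down.

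Total counts ran from 9059457 to 35068711 per mouse (median, 18541819). Nts, the gene that encodes neurotensin, was at 7.82 ± 0.773 CPM (SD, n = 5; CPM are counts scaled to a common library total) in NT+/+ AL and 5.42 ± 0.268 (n = 5) in NT+/+ Fast mice, against 0.314 ± 0.29 (n = 4) in NT-/- AL and 0.433 ± 0.23 (n = 5) in NT-/- Fast mice. NT+/+ Fast replicate 5 carries the genotype NT-/- in another label and was kept in the group its title gives. Every NT+/+ Fast mouse, this one included, had at least 4.98 CPM of Nts, and no mouse of the NT-/- groups had more than 0.792 CPM. With this mouse moved to NT-/- Fast, the same members passed the test with fasting in each genotype. In NT+/+ AL replicate 1, a single transcript, CT010467.1, took 11.5% of all counts, against 0.233% to 2.94% in the other 18 mice. Summed markers of Paneth cells ran from 22000 to 53600 CPM and those of stem cells from 1457 to 3478 CPM over all mice. Markers of pancreatic acinar cells, another source of Reg1, summed to between 1.82 and 4.49 CPM, with 5 or 6 of 9 at 0 in each group.

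Epithelial cells receive the signal for this defense from bacterial products that engage Toll-like receptors and from cytokines of lymphocytes beneath the epithelium, chiefly interleukin-22, which acts through STAT3. Reg3g kills Gram-positive bacteria and keeps them off the villus surface, and Reg3b acts on Gram-negative bacteria. Duox2 sits in the apical membrane, which it reaches only when Duoxa2 escorts it out of the endoplasmic reticulum. Serum amyloids carry retinol and are made by the epithelium in response to bacteria that attach to it.

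Several of the genes are neighbours. In the mouse build GRCm38, Duox2 (chr2:122279247-122298449, minus strand) and Duoxa2 (chr2:122298900-122302885, plus strand) are transcribed away from each other from starts 450 bases apart. Reg3b (chr6:78370657-78373466, plus), Reg3a (chr6:78380709-78383827, plus), Reg1 (chr6:78422711-78428667, plus) and Reg3g (chr6:78466269-78468872, minus) lie in a single cluster. Saa1 (chr7:46740497-46742980, minus) and Saa2 (chr7:46751790-46754313, plus) lie 8809 bases apart. Nos2 (chr11:78920787-78960254, plus) and Lcn2 (chr2:32384633-32388252, minus) stand alone.

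The 250 bases before the RefSeq transcription start (GRCm38.p6) were taken for the 9 of 10 genes that matched, all but Nos2. Of these windows, 4 were free of annotated exons. Those of Duox2, Lcn2, Reg3b, Reg1 and Saa2 held 222, 197, 74, 53 and 43 bases of the gene's own exons. The RefSeq starts of these genes lie inside the gene spans given above, so their windows are partly within the genes. The windows of 3 genes are shown because the results turn on them: Duoxa2, whose window fills much of the space between it and Duox2 and which fell together with Duox2, and the relatives Reg3a and Reg3g, of which the first rose with fasting and the second did not pass the test. Capitals mark TATAAA and CCAAT on either strand.
Duoxa2 (chr2:122298650-122298899, plus strand): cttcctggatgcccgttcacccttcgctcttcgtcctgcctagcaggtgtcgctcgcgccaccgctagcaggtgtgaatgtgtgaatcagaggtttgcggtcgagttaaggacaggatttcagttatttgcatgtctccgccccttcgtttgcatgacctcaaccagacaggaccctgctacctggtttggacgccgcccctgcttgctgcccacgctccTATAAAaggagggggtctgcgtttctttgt
Reg3a (chr6:78380459-78380708, plus strand): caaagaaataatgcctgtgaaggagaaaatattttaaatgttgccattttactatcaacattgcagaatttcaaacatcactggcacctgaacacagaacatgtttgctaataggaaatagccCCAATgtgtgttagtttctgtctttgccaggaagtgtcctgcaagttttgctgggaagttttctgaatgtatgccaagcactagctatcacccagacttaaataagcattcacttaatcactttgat
Reg3g (chr6:78468875-78469124, minus strand): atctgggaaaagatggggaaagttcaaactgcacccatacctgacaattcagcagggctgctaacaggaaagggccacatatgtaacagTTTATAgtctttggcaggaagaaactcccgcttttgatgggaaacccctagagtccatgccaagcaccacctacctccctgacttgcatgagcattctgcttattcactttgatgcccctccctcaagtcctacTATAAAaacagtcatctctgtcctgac
TATAAA was present in the windows of 4 of the 9 genes, Duoxa2, Reg1, Reg3b and Reg3g, against 12.4% of 32817 windows of the same length over all genes. CCAAT was present in 2 of 9, Duox2 and Reg3a, against 33.8% of all windows. The STAT-type letters TTCNNNGAA were found in Reg3b only, between positions -129 and -121 from its RefSeq start, against 7.01% of all windows. This match, the TATAAA of Reg1 and Reg3b and the CCAAT of Duox2 fall within the gene spans given above. An NF-kB-type motif (GGG, any 3 bases, then TTCC) was found in 0 of the 9 against 4.65%. Both strands were searched, the motifs do not overlap in these windows, and a match of letters is no evidence of binding.

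Per kilobase of transcript, levels spanned a wide range. Reg3b was the highest of the 10 genes (1505 CPM per kilobase, mean of 19 mice), followed by Reg3g (773), Reg3a (59.2), Duox2 (38.7), Reg1 (25.3), Duoxa2 (11.9), Nos2 (7.45), Lcn2 (0.461), Saa1 (0.232) and Saa2 (0.0852). Saa1, Saa2 and Lcn2 were at 0 in at least 1 mouse, so no such ratio can be given for them. Among the other genes the spread over mice was widest for Nos2, whose highest mouse was 226-fold above its lowest. Duox2 (59.8-fold) and Duoxa2 (48.1-fold) came next, and Reg3a was narrowest (6.38-fold).

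**Figure D1:**
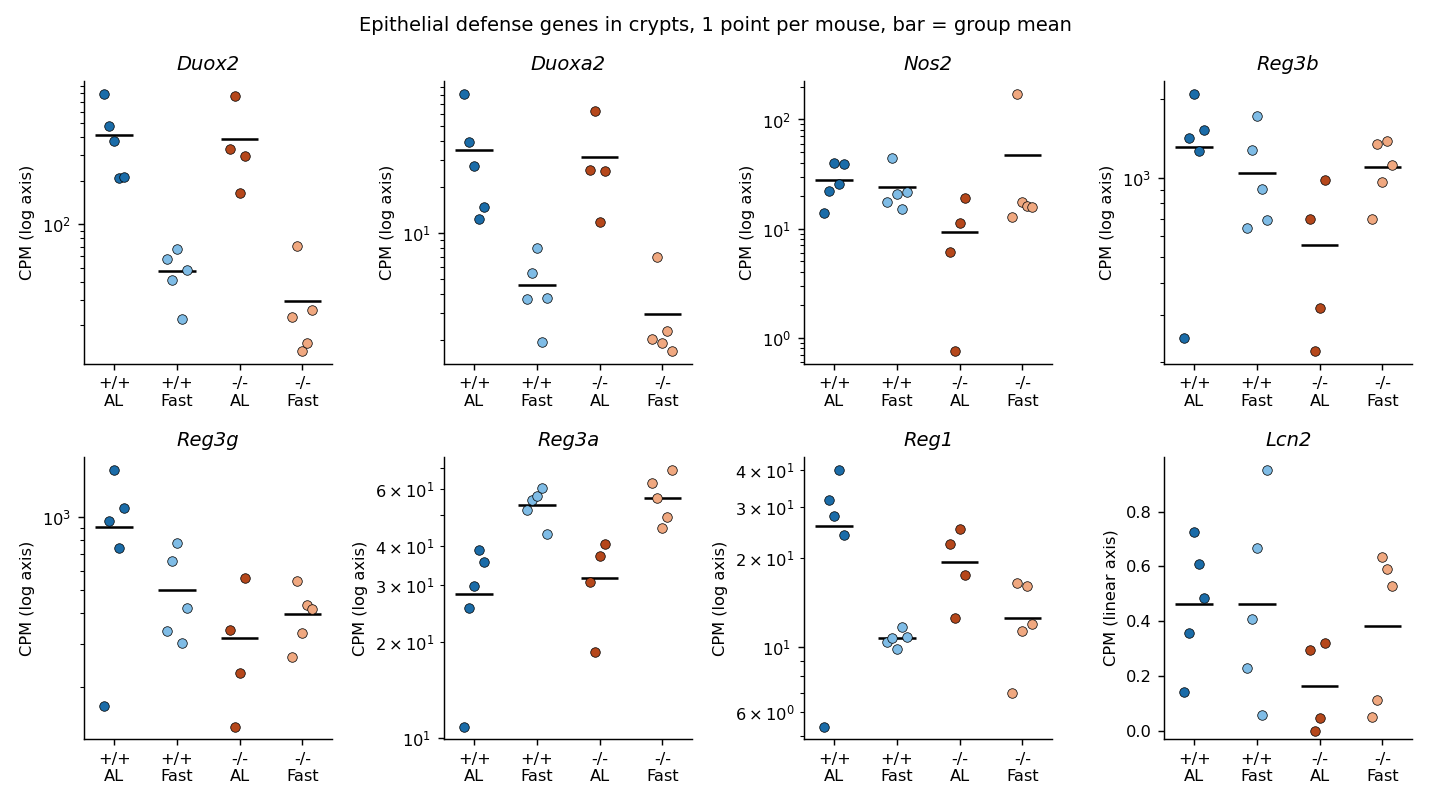
CPM of the 8 tested genes in each mouse, by genotype and diet, with the group mean as a bar; axes are logarithmic except for Lcn2. Duox2 and Duoxa2 were lower in every fasted mouse than in any fed mouse, Reg3a was higher in every fasted mouse, and single mice stand far from their group for Nos2 (171.6 CPM in an NT-/- Fast mouse), Reg1 and Reg3b.

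Fasting lowered Duox2 and Duoxa2, the hydrogen peroxide system of the epithelium, in mice of both genotypes. Of the 8 tested genes, 4 changed with fasting in NT+/+ mice (Reg3a higher, and Duox2, Duoxa2 and Reg1 lower), beside 21.6% of all genes tested. In NT-/- mice also 4 changed (Reg3a and Nos2 higher, Duox2 and Duoxa2 lower), beside 25.2% of all genes. The median log2 fold change over the 8 genes was −0.59 in NT+/+ and 0.58 in NT-/- mice, against −0.01 and −0.02 over all genes tested. These medians lie between Reg3g and Reg3b (−0.85 and −0.32) in NT+/+ and between Reg3g and Reg3a (0.33 and 0.84) in NT-/- mice. Of these values only that of Reg3a passed the test, and none of the 8 genes was shown to differ in its fasting effect between genotypes. The groups of fed and fasted mice did not overlap for 3 of the 8 genes in either genotype (Reg3a, Duox2 and Duoxa2), beside 14.6% of all genes in NT+/+ and 21.3% in NT-/- mice.

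Duox2, which makes hydrogen peroxide at the apical surface, was at 795, 475, 374, 209 and 210.3 CPM in the 5 NT+/+ AL mice and at 332, 764, 165 and 293 CPM in the 4 NT-/- AL mice. After the fast it was at 57.2, 41, 67.7, 22.2 and 47.9 CPM in NT+/+ mice and at 22.8, 70.2, 13.3, 15 and 25.5 CPM in NT-/- mice. The lowest fed mouse of the 9 was thus above the highest of the 10 fasted mice. Duox2 fell by 3.13 on the log2 scale in NT+/+ mice (SE, 0.5; adjusted p = 0.000191), 8.74-fold, and by 3.75 in NT-/- mice (SE, 0.53; adjusted p = 4.65e-05). The two-sided exact permutation test of the mice gave p = 0.00794 in each genotype, the smallest p that it can give. Without NT+/+ AL replicate 1, the mouse with the highest Duox2, the log2 fold change in NT+/+ mice was −2.75 (adjusted p = 0.000535). In bulk crypts, fewer cells that make a transcript cannot be told apart from less of it per cell.

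Duoxa2 followed the same course. It was at 81.3, 39.3, 27.4, 12.3 and 14.7 CPM in NT+/+ AL and at 25.8, 62.8, 11.8 and 25.3 CPM in NT-/- AL mice. In fasted mice it was at 3.71, 5.46, 7.97, 1.94 and 3.75 CPM (NT+/+) and at 2.03, 6.92, 1.91, 2.27 and 1.69 CPM (NT-/-). It fell by 2.93 on the log2 scale in NT+/+ mice (SE, 0.54; adjusted p = 0.000708) and by 3.52 in NT-/- mice (SE, 0.6; adjusted p = 0.000285), and fed and fasted mice did not overlap in either genotype. Without NT+/+ AL replicate 1 the log2 fold change in NT+/+ mice was −2.35 (adjusted p = 0.00232). Mice with much Duox2 had much Duoxa2: after the group means were removed, log2 CPM of the pair correlated with a Pearson r of 0.91 over the 19 mice, and no other gene tested was closer to Duox2. The ratio of Duox2 to Duoxa2 CPM was 13.4 ± 2.67 (SD, n = 5) in NT+/+ AL, 12.7 ± 1.02 (n = 4) in NT-/- AL, 11.1 ± 3.21 (n = 5) in NT+/+ Fast and 10 ± 3.46 (n = 5) in NT-/- Fast mice.

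**Figure D2:**
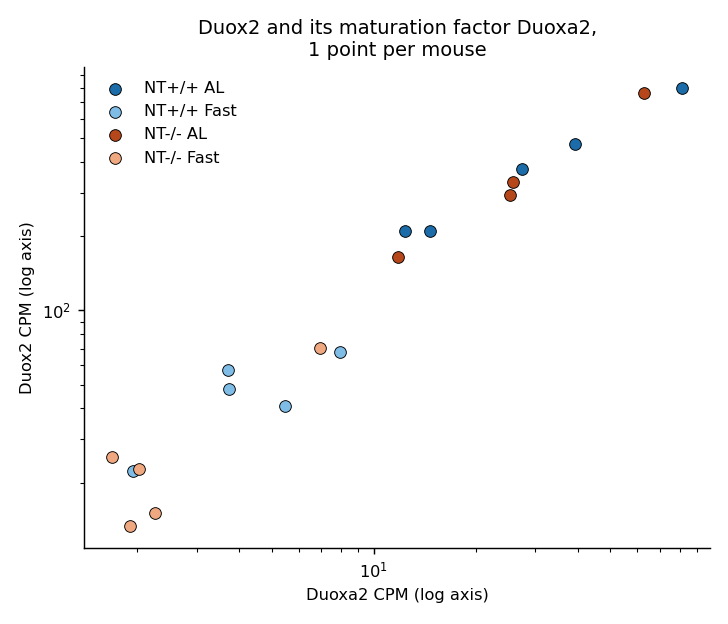
Duox2 against Duoxa2 in CPM, both on logarithmic axes, with 1 point for each of the 19 mice, coloured by group. The 9 fed mice lie at 165 CPM of Duox2 or more and the 10 fasted mice at 70.2 CPM or less, along a single band.

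Most of the other oxidase genes that were tested also fell. Among 11 relatives of the 10 genes, 8 were tested, of which fasting lowered 4 and raised 1 in NT+/+ mice, and lowered 5 and raised 1 in the NT-/- genotype. Of all genes tested, it lowered 10.4% and raised 11.2% in NT+/+ mice, and lowered 12.6% and raised 12.5% in NT-/- mice. The lowered genes are named here, Noxo1 after its values were seen. Nox1, the main NADPH oxidase of the colon, fell by 3.10 on the log2 scale in NT+/+ mice (adjusted p = 0.000461) and by 2.01 in NT-/- mice (adjusted p = 0.0168), from means of 5.65 and 2.38 CPM. Noxa1, its activator subunit, fell by 1.14 (adjusted p = 0.000438) and 1.09 (adjusted p = 0.00098), and Noxo1, its organizer subunit, fell by 0.44 (adjusted p = 0.0115) and 0.53 (adjusted p = 0.00411). Duoxa1, the maturation factor of Duox1, fell by 1.68 in NT+/+ (adjusted p = 0.0245) and 2.72 in NT-/- mice (adjusted p = 0.0023). Duox1 fell by 1.17 in NT-/- mice (adjusted p = 0.00339) and had a log2 fold change of −0.46 in NT+/+ mice (adjusted p = 0.2). Cyba, the membrane partner of Nox1, did not pass, with log2 fold changes of −0.18 (adjusted p = 0.447) and 0.05 (adjusted p = 0.863), and is also named after its values were seen. Of the 100-base stretches of Duoxa2 transcripts, 39.1% lie on the opposite strand of Duoxa1 transcripts, and the strand setting of the counting is not given in the sources used here, so the counts of Duoxa1, at a mean of 2.23 CPM, cannot be separated from those of Duoxa2. For Duox2, 1.88% of such stretches also occur in Duox1.

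**Figure D3:**
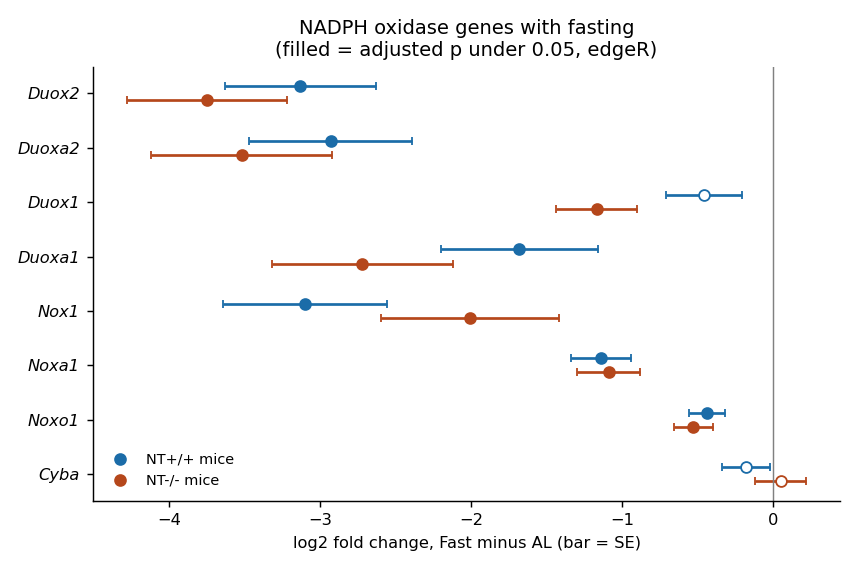
Log2 fold change with fasting (Fast minus AL) of Duox2, Duoxa2 and 6 related oxidase genes in NT+/+ and NT-/- mice, with the standard error as a bar; filled points passed an adjusted p of 0.05. Cyba lies near 0 and is open in both genotypes, Duox1 is open in NT+/+ mice, and the other points are filled and below 0.

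Markers of some cell types also differed with diet. Over all genes tested, fasting raised 11.2% and lowered 10.4% in NT+/+ mice, and raised 12.5% and lowered 12.6% in NT-/- mice. Of 10 enterocyte markers, fasting raised 8 in NT+/+ and all 10 in NT-/- mice, and their sum ran from 4383 to 8694 CPM in NT+/+ AL, 8576 to 17880 in NT+/+ Fast, 6549 to 9553 in NT-/- AL and 16010 to 21620 in NT-/- Fast mice. None of the 10 was at 0 in a whole group. Of 6 stem cell markers, 1 was lower in fasted NT+/+ and 2 in fasted NT-/- mice, and of 7 goblet cell markers 2 and 3 were lower and 1 in each was higher. Of 8 Paneth cell markers, none passed the test in NT+/+ mice and 1, Defa17, was lower in NT-/- mice (log2 fold change, −0.72; adjusted p = 0.032). The part of these shifts in the fall of the oxidase genes or in the rise of Reg3a was not tested.

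Nos2, which makes nitric oxide in response to inflammatory and bacterial signals, did not pass the test in NT+/+ mice. It was at 14, 22, 39.7, 25.7 and 38.9 CPM in NT+/+ AL and at 17.4, 44.4, 20.6, 15.2 and 21.8 CPM in NT+/+ Fast mice, ranges that overlap almost wholly (log2 fold change, −0.23; SE, 0.67; adjusted p = 0.847). It was at 6.14, 0.758, 11.4 and 19.1 CPM in NT-/- AL and at 12.9, 171.6, 17.6, 16.1 and 15.7 CPM in NT-/- Fast mice. Nos2 was called higher in fasted NT-/- mice (log2 fold change, 2.30; SE, 0.77; adjusted p = 0.0347). That call rested on single mice: without NT-/- Fast replicate 2, at 171.6 CPM, the log2 fold change was 0.75 (adjusted p = 0.34), and without NT-/- AL replicate 2, at 0.758 CPM, it was 1.92 (adjusted p = 0.0865). In the fit with same-numbered mice as a block it was 1.66 (adjusted p = 0.108), and the exact permutation test gave p = 0.0952. NT-/- Fast replicate 2 was the shallowest library, with 9059457 counts, of which 1512 were of Nos2.

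Within the Reg family, Reg3a rose with fasting. It was at 10.8, 25.5, 29.9, 38.8 and 35.6 CPM in NT+/+ AL and at 51.7, 55.5, 57.2, 60.4 and 43.5 CPM in NT+/+ Fast mice. In NT-/- mice it was at 30.8, 18.5, 37 and 40.3 CPM when fed and at 62.7, 56.2, 45.5, 49.1 and 69.2 CPM when fasted. Fed and fasted mice did not overlap in either genotype. The log2 fold change was 0.93 in NT+/+ (SE, 0.24; adjusted p = 0.00938) and 0.84 in NT-/- mice (SE, 0.26; adjusted p = 0.0229), with an exact permutation p = 0.00794 in each. In NT-/- mice the adjusted p rose to 0.0534, 0.0842 and 0.0547 without NT-/- AL replicate 1, NT-/- AL replicate 2 and NT-/- Fast replicate 5, and to 0.0561 with sex as a covariate. Reg3d, a little expressed relative in the same cluster, also rose (1.21 in NT+/+, adjusted p = 0.0402, and 1.62 in NT-/- mice, adjusted p = 0.014, on the log2 scale, from means of 0.458 and 0.322 CPM).

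Reg1 moved the other way in NT+/+ mice. It was at 5.37, 31.5, 27.8, 40 and 23.9 CPM in NT+/+ AL and at 10.4, 10.7, 9.88, 11.7 and 10.8 CPM in NT+/+ Fast mice. Every fed mouse except replicate 1 was above every fasted mouse, and the fasted mice were close to each other. The log2 fold change was −1.27 (SE, 0.34; adjusted p = 0.0108; exact permutation p = 0.0476), and −1.53 (adjusted p = 7.84e-05) without NT+/+ AL replicate 1. In NT-/- mice Reg1 was at 22.3, 12.6, 25.2 and 17.6 CPM when fed and at 7, 16.4, 11.3, 16.1 and 12 CPM when fasted, with overlap (log2 fold change, −0.65; SE, 0.36; adjusted p = 0.198, and 0.0327 without NT+/+ AL replicate 1). The difference between the 2 fasting effects was 0.62 (95% interval, −0.43 to 1.66; adjusted p = 1), so the genotypes were not shown to differ.

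Reg3b and Reg3g, the antibacterial lectins, did not pass the test with fasting. Reg3b was at 246.3, 1421, 2089, 1268 and 1520 CPM in NT+/+ AL, 647, 1275, 1717, 910.5 and 694.5 in NT+/+ Fast, 701, 220, 319 and 979 in NT-/- AL, and 697, 1341, 966, 1386 and 1118 in NT-/- Fast mice. Its log2 fold change with fasting was −0.32 (SE, 0.43; adjusted p = 0.65) in NT+/+ and 0.99 (SE, 0.47; adjusted p = 0.133) in NT-/- mice. Reg3g was at 167, 964, 1565, 742 and 1089 CPM in NT+/+ AL, 340, 658, 780.2, 303 and 423 in NT+/+ Fast, 342, 137, 228 and 560.2 in NT-/- AL, and 264, 544, 332, 435 and 416 in NT-/- Fast mice. It had log2 fold changes of −0.85 (SE, 0.43; adjusted p = 0.167) and 0.33 (SE, 0.45; adjusted p = 0.654). In NT+/+ mice the value for Reg3g became −1.12 (adjusted p = 0.0284) without NT+/+ AL replicate 1, the mouse in which Reg1, Reg3a, Reg3b and Reg3g were all lowest of their group. All groups overlap for both genes.

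The pair of lectins varied together from mouse to mouse. Their log2 CPM, with group means removed, correlated with a Pearson r of 0.97 over 19 mice, and each was the other's closest gene among all tested. The ratio of Reg3b to Reg3g nevertheless differed between diets: it was 1.48 ± 0.142 (SD, n = 5) in NT+/+ AL, 1.7 ± 0.273 (n = 4) in NT-/- AL, 2.14 ± 0.522 (n = 5) in NT+/+ Fast and 2.78 ± 0.279 (n = 5) in NT-/- Fast mice. In NT-/- mice fed (1.4 to 2.05) and fasted (2.47 to 3.19) ratios did not overlap, and in NT+/+ mice they did (1.33 to 1.71 and 1.64 to 3). The ratio was looked at after the values were known and was not tested. Neither gene shares a 100-base stretch with another gene's transcripts, nor do Reg1 and Reg3a, so reads of full length could be assigned to a single gene.

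**Figure D4:**
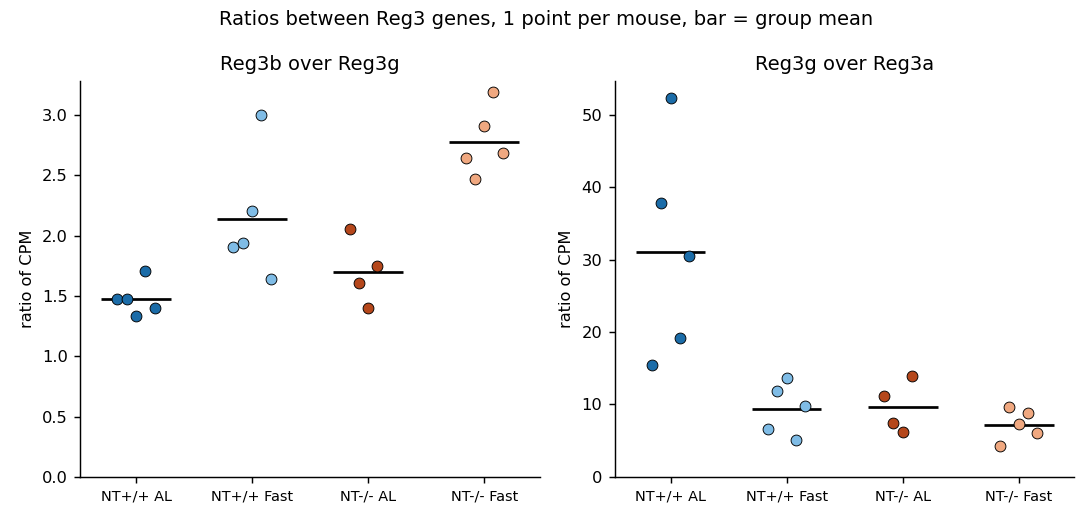
Ratio of Reg3b to Reg3g and of Reg3g to Reg3a in CPM, for each mouse by group, with the group mean as a bar and axes from 0. The first ratio lies between 1.33 and 2.05 in fed and between 1.64 and 3.19 in fasted mice, and the second is highest in NT+/+ AL mice (15.4 to 52.3) and at most 13.9 in the other groups.

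Lcn2 and the serum amyloids were scarcely expressed in these crypts. Lcn2 had 131 counts over the 19 mice, from 0 to 17 per mouse, and group means of 0.464 ± 0.226 CPM (n = 5) in NT+/+ AL, 0.166 ± 0.165 (n = 4) in NT-/- AL, 0.464 ± 0.354 (n = 5) in NT+/+ Fast and 0.385 ± 0.278 (n = 5) in NT-/- Fast mice. Its log2 fold change with fasting was 0.04 (SE, 0.63; adjusted p = 0.971) in NT+/+ and 1.11 (SE, 0.78; adjusted p = 0.328) in NT-/- mice. Saa1 had 42 counts, with 0, 8, 4, 1 and 4 in NT+/+ AL, 0, 0, 0 and 3 in NT-/- AL, 2, 5, 2, 2 and 2 in NT+/+ Fast and 3, 3, 3, 0 and 0 in NT-/- Fast mice. Saa2 had 31 counts, from 0 to 5 per mouse. A count of 0 allows a level of up to 3 counts, which is 0.0885 CPM in the deepest and 0.34 CPM in the shallowest library, for counting error only. Differences at this level were not detectable, and 230 of the 100-base stretches of Saa1 (8.96%) also occur in Saa2.

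Between NT-/- and NT+/+ mice none of the 8 tested genes passed edgeR's test in either diet. In ad libitum-fed mice 0 of 8 were called, beside 0.00559% of all genes tested, the groups did not overlap for 0 of 8, beside 0.694% of all genes, 3 had an unadjusted p under 0.05 (1.67% of all genes), and DESeq2 also called 0. The 3 were Reg3g (NT-/- minus NT+/+, −1.51; SE, 0.47; 95% interval, −2.52 to −0.51; adjusted p = 1), Reg3b (−1.24; SE, 0.47; interval, −2.25 to −0.23; adjusted p = 1) and Nos2 (−1.59; SE, 0.76; interval, −3.2 to 0.02; adjusted p = 1) on the log2 scale. The interval of Nos2 just includes 0 although its unadjusted p is under 0.05, because the intervals are approximate. Exact permutation tests of the mice gave p = 0.119, 0.151 and 0.0238 for Reg3g, Reg3b and Nos2, with the smallest possible at 0.00794. In the fed groups, 4 of the 5 NT+/+ AL mice had more Reg3b and Reg3g than any NT-/- AL mouse, and NT+/+ AL replicate 1 had less than 3 of the 4 NT-/- AL mice. Over the same-numbered mice of the 2 groups, Nos2 was lower in the NT-/- mouse of 4 of 4 pairs and Reg3b and Reg3g in 3 of 4. Without NT+/+ AL replicate 1 the log2 difference was −1.78 for Reg3g (adjusted p = 0.462).

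For the oxidase pair in fed mice, the interval of the genotype difference was wide. Duox2 differed by −0.09 on the log2 scale (95% interval, −1.12 to 0.95) and Duoxa2 by −0.16 (−1.25 to 0.93), which allows a change of about 1 log2 unit in either direction. The sign of both differences turned without NT+/+ AL replicate 1 (0.29 and 0.42). Reg3a differed by 0.17 (−0.38 to 0.72), and by −0.03 without the same mouse, and Reg1 by −0.40 (−1.15 to 0.34).

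In fasted mice 0 of 8 genes were called between the genotypes, beside 0.00559% of all genes, with 0 at an unadjusted p under 0.05 (9.14% of all genes) and 0 by DESeq2, and the groups overlapped for all 8, beside 1.56% of all genes that did not overlap. Log2 differences were −0.71 for Duox2 (95% interval, −1.74 to 0.31), −0.74 for Duoxa2 (−2.04 to 0.55), 0.94 for Nos2 (−0.50 to 2.39), 0.08 for Reg3a (−0.43 to 0.59), 0.07 for Reg3b (−0.85 to 0.99), −0.33 for Reg3g (−1.24 to 0.58), 0.21 for Reg1 (−0.52 to 0.95) and −0.26 for Lcn2 (−1.69 to 1.18). The value for Nos2 became −0.61 without NT-/- Fast replicate 2. Reg3a had the narrowest of these intervals.

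**Figure D5:**
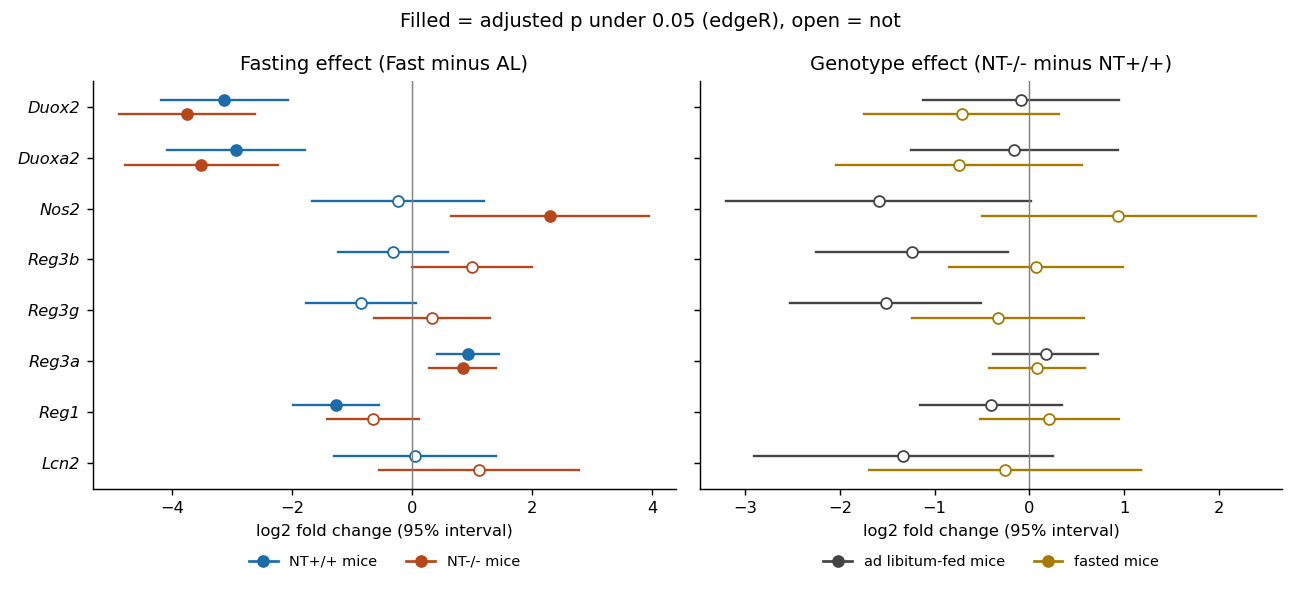
Log2 fold changes of the 8 tested genes with 95% intervals, for fasting in each genotype (left) and for genotype in each diet (right); filled points passed an adjusted p of 0.05 in edgeR. Duox2 and Duoxa2 are filled below 0 in both genotypes and Reg3a above 0, and every genotype comparison is open.

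The effect of fasting was then compared between the genotypes by the test of the difference itself. No gene of the 8 passed it, nor did any of the 17875 tested (0%), with 1 of the 8 at an unadjusted p under 0.05 (2.71% of all genes) and 0 called by DESeq2. That gene was Nos2 (difference, 2.53 on the log2 scale; SE, 1.01; adjusted p = 1), and the value was 0.98 without NT-/- Fast replicate 2. The difference was −0.63 for Duox2 (95% interval, −2.07 to 0.82), −0.58 for Duoxa2 (−2.27 to 1.10) and −0.09 for Reg3a (−0.84 to 0.66). For Reg3b it was 1.31 (−0.05 to 2.67) and for Reg3g 1.18 (−0.15 to 2.51).

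With both genotypes averaged, fasting changed 4 of 8 genes, beside 39.4% of all genes tested, 3 of them lower (20.2% of all genes) and 1 higher (19.2%). The log2 fold changes were −3.44 for Duox2 (SE, 0.36; adjusted p = 5.16e-07), −3.23 for Duoxa2 (SE, 0.4; adjusted p = 3.85e-06), −0.96 for Reg1 (SE, 0.24; adjusted p = 0.00399) and 0.88 for Reg3a (SE, 0.18; adjusted p = 0.000556). Averaged over diets, 0 of 8 genes were called between genotypes, beside 0.0224% of all genes, with 1 (Reg3g, −0.92; SE, 0.31; adjusted p = 0.522) at an unadjusted p under 0.05 (6.77% of all genes) and 0 by DESeq2.

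The receptors and relays of these signals were measured as a separate list. Of 18 genes of cytokine and microbe sensing, 17 were tested. In NT+/+ mice 2 rose and 4 fell with fasting, beside 11.2% and 10.4% of all genes tested. In NT-/- mice 2 rose and 3 fell, beside 12.5% and 12.6%. Il22ra1, the epithelial receptor chain for interleukin-22, rose by 0.44 in NT+/+ (adjusted p = 0.00426) and by 0.52 in NT-/- mice (adjusted p = 0.00159) on the log2 scale. Traf6, which relays Toll-like receptor signals, rose by 0.35 (adjusted p = 0.00403) and 0.29 (adjusted p = 0.0194). Irak4, a kinase of the same route, fell by 0.46 (adjusted p = 0.000341) and 0.52 (adjusted p = 0.000158), and Il17rc, a receptor chain for interleukin-17, fell by 0.31 (adjusted p = 0.0193) and 0.40 (adjusted p = 0.00547). Tyk2, a kinase that serves the interleukin-22 receptor, fell by 0.31 (adjusted p = 0.00381) and 0.32 (adjusted p = 0.00345). Ripk2, which acts below Nod2, fell by 0.50 in NT+/+ mice (adjusted p = 0.0301). With the genotypes averaged, 5 of the 17 rose and 4 fell, beside 19.2% and 20.2% of all genes tested. Socs3, a feedback target of STAT3, was among those that rose (0.75; adjusted p = 0.0135) but was not called in either genotype alone.

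Of 11 genes on the list of inducing cytokines, 3 were tested. Il22, named as the main inducer, had 2 counts over all mice. Its mean was 0 CPM in NT+/+ AL and NT+/+ Fast mice, 0.00738 CPM in NT-/- AL and 0.0116 CPM in NT-/- Fast mice. The lymphocytes named above as its source lie beneath the epithelium, whereas freed crypts were sequenced. Whether Il22 was present or changed beneath the epithelium was therefore not tested. Tnf, an inflammatory cytokine, fell by 1.63 in NT+/+ mice (adjusted p = 0.00781), from a mean of 1.37 CPM to 0.432 CPM. Its log2 fold change was −1.21 in NT-/- mice (adjusted p = 0.0722) and −1.42 with the genotypes averaged (adjusted p = 0.00136). The sum of 12 leukocyte markers ran from 85.9 to 141 CPM in NT+/+ AL, 80.6 to 125 in NT-/- AL, 76.7 to 184 in NT+/+ Fast and 107 to 148 in NT-/- Fast mice. Of the 12, 1, Itgam, was lower in fasted mice of each genotype, beside 10.4% of all genes in NT+/+ and 12.6% in NT-/- mice.

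Among 20 other epithelial defense genes, 15 were tested, and 1 rose and 4 fell with fasting in NT+/+ and 1 rose and 3 fell in NT-/- mice. Of all genes tested, 11.2% rose and 10.4% fell in NT+/+ mice, and 12.5% rose and 12.6% fell in NT-/- mice. Sprr2a3 and Sprr2a1, small proline-rich proteins induced by bacteria, fell in both genotypes, although reads of these near-identical genes can be divided between them by the counting. The log2 fold changes were −3.70 and −4.96 for Sprr2a3 (adjusted p = 0.00109 in NT+/+ and 0.000202 in NT-/- mice) and −1.89 and −2.11 for Sprr2a1 (adjusted p = 0.00152 and 0.000783). Retnlb, a bactericidal goblet cell protein, had log2 fold changes of −3.59 (adjusted p = 0.0537) and −3.20 (adjusted p = 0.0972) and passed with the genotypes averaged (−3.39; adjusted p = 0.00723). Fed mice varied widely in Retnlb and Sprr2a3, with SDs above the means. Retnlb was at 4.65 ± 7.74 CPM (SD) in NT+/+ AL and 3.55 ± 3.99 in NT-/- AL mice, and Sprr2a3 at 28.5 ± 29.9 and 38.7 ± 44.4 CPM. Gpx2, the epithelial glutathione peroxidase that removes hydrogen peroxide, fell by 1.36 (adjusted p = 0.00037) and 1.49 (adjusted p = 0.000203), from means of 354.5 and 324 CPM to 138 and 115 CPM. Ccl25, a chemokine that draws lymphocytes to the small intestine, rose by 0.46 (adjusted p = 0.000208) and 0.44 (adjusted p = 0.000448). Of 10 acute phase genes 3 were tested: Cfb, complement factor B, rose by 0.33 (adjusted p = 0.0119) and 0.50 (adjusted p = 0.000776), and Bcl3, a nuclear partner of NF-kB, fell by 0.87 (adjusted p = 0.00329) and 0.89 (adjusted p = 0.00358). No gene of these lists was called between genotypes within a diet.

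The genes that followed each member most closely from mouse to mouse, with group means removed, are given as a description over the 19 mice, which share their libraries. For Duox2 they were Duoxa2 (r = 0.91), Duoxa1 (0.91) and AA467197 (0.89). Reg3a was closest to the retinaldehyde dehydrogenase Aldh1a1 (0.91), to Ugt2a3 (0.87) and to Aldh1a7 (0.87). Reg1 was closest to the bicarbonate transporter gene Slc4a5 (0.91), Gm35570 (0.89) and Gja5 (0.85). Nos2 was closest to Barx2 (0.85), the inflammatory caspase Casp4 (0.84) and the mucin Muc13 (0.83). After its partner Reg3g (0.97), Reg3b was closest to Stom (0.89) and Cpn2 (0.87), and Reg3g to F2 (0.86) and Cpn2 (0.85). Across these mice Reg3a and Duox2 went in opposite directions also within groups (r = −0.56), whereas Reg3a and Reg3g went together (r = 0.72). NT+/+ AL replicate 1 and NT-/- AL replicate 2 each had the lowest Reg3a and Reg3g and the highest Duox2 of their group. How far these correlations rest on those mice was not tested.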

How the data were processed

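RNA from crypts of 19 mice was sequenced by the authors as rRNA-depleted, 100-base single-end libraries, trimmed with Trimmomatic 0.39 and mapped to Ensembl GRCm38 transcripts. The authors deposited RSEM expected counts per gene, with effective lengths. RSEM divides reads that fit several genes by a model, and its version and strand setting are not given in the sources used here. Expected counts were rounded, and genes were named from Ensembl identifiers. Levels are CPM on TMM library sizes, and CPM per kilobase used the deposited effective lengths.

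Low genes were removed with filterByExpr, which left 17875. Differences were tested with edgeR 4.0.16 (quasi-likelihood; R 4.3.3; limma 3.58.1) with 4 group means and no covariate, Benjamini-Hochberg adjusted over all genes tested and called at 0.05. A log2 fold change is Fast minus AL, or NT-/- minus NT+/+. Single genes were also compared by two-sided exact permutation tests of log2(CPM + 1). The tests were checked on simulated counts. P-values measure the spread between mice. Intervals are approximate 95% intervals around the edgeR estimate, and one can include 0 where the unadjusted p is just under 0.05.

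Same-numbered mice deviated together (mean correlation of deviations 0.23 to 0.271, lowest pair 0.117, other pairs −0.058 to −0.067) for the number in the file names, so these numbers were taken to pair the mice; the labels do not say what the number marks. For the numbers in the titles the lowest pair was at −0.065. Deviations from group means cancel within each group, so the negative values for other pairs follow from the positive ones and are no separate support. The pairing thus comes from the data.

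Beside the 10 members, genes were named from the lists mainly by a rule, up to 3 per direction with the largest called change, and the 3 genes closest to a member. Not all genes that the rule selects are named. Cell type markers are mostly given as counts and sums, and the closest genes of Lcn2 and, beyond Duox2, of Duoxa2 are left out. The members and lists were chosen with earlier results of these data known. Alternatives were other filters, scalings, DESeq2 1.42.0, blocks, sex, the other genotype label of 1 mouse, summed paralogs and leaving out each mouse. The columns of TPM and FPKM were not used. The result of 1 gene among the listed genes is not reported here.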

Additional observations from a re-analysis of the deposited data

Results flagged for a closer look

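In 4 of 32 sets of a gene and a group, 1 mouse stood farther from the others than Dixon's 95% limit for its group. The limit was applied to log2(CPM + 1), whereas the values below are in CPM. Chance gives about 1 in 20 such sets. Reg1 was at 5.373 CPM in NT+/+ AL replicate 1, against 23.92 CPM in the next lowest mouse of that group. In the same mouse Reg3b was at 246.3 CPM, against 1268 CPM in the next. This mouse also had 11.5% of its counts in CT010467.1 and the lowest summed enterocyte markers of all mice (4383 CPM), and the part of either in its Reg levels was not tested. In NT-/- Fast replicate 2, Duoxa2 was at 6.922 CPM, against 2.269 CPM in the next highest mouse, and Nos2 at 171.6 CPM, against 17.64 CPM. That library was the shallowest.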

How the results depend on the processing

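Of the members' values under alternatives other than leaving out a mouse, 526 kept their direction and side of the threshold, 4 lost a call and 9 changed sign, and no called value changed sign. The calls lost were Reg3a in NT-/- mice with sex as a covariate and Nos2 in NT-/- mice with a replicate block by title number (1.63) or file-name number (1.66) and with only both groups in the fit (2.30, adjusted p = 0.0813). With either replicate block 3 members were called for fasting in NT-/- mice in place of 4, and the block changed no other member's call. The sign changes were all in values far from the threshold: Lcn2 with fasting in NT+/+ mice (−0.03 and −0.07 with the title and file-name blocks, −0.12 with sex and −0.39 with the other genotype label); between genotypes in fasted mice with that label, Reg3a (−0.05), Reg3b (−0.14) and Lcn2 (0.51); and with Reg3b and Reg3g summed, Reg3b in fasted mice (−0.05) and Reg3g with fasting averaged (0.13). The cause was not tested.

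Leaving out each mouse in turn gave 2 to 5 members called for fasting in NT-/- mice (2 without NT-/- AL replicate 1 or 2) and 4 to 5 in NT+/+ mice. Values whose sign changed ranged as follows. Lcn2 with fasting in NT+/+ mice ran from −0.39 to 0.33. In fed mice between genotypes Reg3a ran from −0.03 to 0.36, Duox2 from −0.65 to 0.29 and Duoxa2 from −0.74 to 0.42. In fasted mice Reg3a ran from −0.01 to 0.15, Reg3b from −0.06 to 0.32, Nos2 from −0.61 to 1.28 and Lcn2 from −0.54 to 0.18. The difference between fasting effects ran from −0.28 to 0.11 for Reg3a and from −1.16 to 0 for Duoxa2, and the averaged genotype effect of Reg1 from −0.23 to 0.01. Over all genes, DESeq2 called 3 between genotypes in fed, 101 in fasted and 55 in all mice, against 1, 1 and 4 by edgeR; the strict filter and the other genotype label gave 0 in fed and 0 in fasted mice, and for all mice the blocks gave 10 and 15 and sex or the other label 1. Low counts limit Saa1, Saa2 and Lcn2: without a filter, neither Saa gene nor their sum passed (adjusted p of 0.426 or more).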
